A study of Mus musculus with 4 samples.

Results

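The ephrins, semaphorins and Slits with their Eph, plexin, neuropilin and Robo receptors were followed in RNA-Seq of the whole urogenital sinus (UGS) of mouse embryos. The genes were taken by symbol from the deposited expression table, and 59 of its 25819 rows matched: 14 Eph receptors, 8 ephrins, 20 semaphorins, 9 plexins, 2 neuropilins, 3 Slits and 3 Robos. The rule uses symbols and no measured value, though the families were picked with earlier results of these data known. The study asked how loss of Tbx18, a T-box transcription factor of the mesenchyme, alters the developing prostate, and compared male Tbx18 GFP/GFP embryos with wild type embryos at E16.5 and at E18.5. The Tbx18 GFP allele is a null made by a GFP knock-in, and the line was kept on a hybrid B6C3-F1 background. There were 4 libraries, 1 for each genotype at each stage, each from RNA pooled from the UGS of 3 male embryos. With 1 library a group there was no replicate in the sequencing, and no test, standard deviation or p-value could be had for any difference given here. The paper reports that RT-qPCR of several genes in individual UGS samples gave results close to those of the pools. Those values were not used here.

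Values are FPKM, in which reads are divided by the length of the transcript and by the depth of the library, so levels can be set side by side between genes. Where 4 values are given, both E16.5 libraries come before both E18.5 libraries, and within each stage wild type comes before Tbx18 GFP/GFP. The libraries held an estimated 29100000 to 64000000 mapped reads, fewest in E18.5 wild type, which also had the lowest FPKM sum, 375826 against 460392 to 504136 in the other 3. The Tbx18 row (chromosome 9, 87597635 to 87626095) held 3.47, 2.50, 3.16 and 2.93 FPKM, and the table does not tell transcript of the knock-in allele from intact transcript. Gene positions are those of the deposited table, whose build is not named and which differ from GRCm38. Markers of the tissue were present: 6 mesenchymal genes summed to between 2048 and 2781 FPKM and 6 epithelial genes to between 238 and 320 FPKM. Other cell types were present too, and the 5 smooth muscle genes summed to 1044, 540, 1231 and 3434 FPKM, the 6 skeletal muscle genes to between 169 and 585 FPKM, the 3 erythroid genes found in the table to between 3173 and 14275 FPKM and the 6 neuronal genes to between 271 and 442 FPKM. The 6 endothelial genes summed to 99.4, 111, 88.5 and 104 FPKM, the 5 Schwann cell genes to between 27.2 and 29.5 FPKM, and the 4 leukocyte genes to between 13.6 and 15.9 FPKM with Ptprc below 1 FPKM throughout. In whole UGS, fewer cells of a type and less RNA per cell cannot be told apart.

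These families act at the contact between cells. Ephrins are held at the membrane, A ephrins by a lipid anchor and B ephrins by a transmembrane segment, and bind Eph receptor tyrosine kinases on neighbouring cells, with signals running into both cells. Semaphorins are secreted or membrane bound and act through plexins, those of class 3 mostly together with neuropilins, and the secreted Slits act through Robo receptors. They are best known for steering axons, and also shape blood vessels, epithelial branching and the sorting of cells into separate layers.

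Because the series removes a T-box factor, the promoters were searched for AGGTGTGA, the core site that T-box factors bind, on either strand in the 300 bases from 250 before to 50 after each RefSeq start site (GRCm38.p6). RefSeq windows were found for 52 of the 59 genes, 68 windows in all. The letters occurred in 1 of the 68 windows (1.47%), against 419 of 32851 windows over all genes (1.28%). The window was that of Sema4a, on the minus strand of chromosome 3 (chr3:88461133-88461432), shown as the only guidance promoter with the letters, in capitals, starting 40 bases after the start site.
Sema4a: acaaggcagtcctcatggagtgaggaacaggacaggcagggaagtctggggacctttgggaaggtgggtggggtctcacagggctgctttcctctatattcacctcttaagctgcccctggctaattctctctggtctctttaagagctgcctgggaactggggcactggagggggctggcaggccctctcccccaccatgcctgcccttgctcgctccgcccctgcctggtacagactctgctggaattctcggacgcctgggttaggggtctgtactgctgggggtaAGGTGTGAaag
Sema4a, a membrane-bound semaphorin, had 7.59, 7.55, 4.69 and 6.72 FPKM, nearly equal between genotypes at E16.5.

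The member windows held 19.6 CpG on average, the dinucleotide that vertebrate promoters carry in islands, against 12.4 over all windows, with a median GC content of 64.0% against 52.7%. The set of all windows was not filtered by expression in the UGS. The windows of Sema3g (chr14:31217623-31217922, plus strand) and Sema5a (chr15:32244563-32244862, plus strand) are shown since these genes lay near opposite ends of the genotype ratios at E18.5. Each CpG is in capitals.
Sema3g: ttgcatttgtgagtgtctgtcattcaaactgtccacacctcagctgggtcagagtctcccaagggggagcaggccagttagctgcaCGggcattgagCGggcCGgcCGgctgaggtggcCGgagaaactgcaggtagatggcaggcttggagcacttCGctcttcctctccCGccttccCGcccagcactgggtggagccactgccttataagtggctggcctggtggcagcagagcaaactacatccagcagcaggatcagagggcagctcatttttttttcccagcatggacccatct
Sema5a: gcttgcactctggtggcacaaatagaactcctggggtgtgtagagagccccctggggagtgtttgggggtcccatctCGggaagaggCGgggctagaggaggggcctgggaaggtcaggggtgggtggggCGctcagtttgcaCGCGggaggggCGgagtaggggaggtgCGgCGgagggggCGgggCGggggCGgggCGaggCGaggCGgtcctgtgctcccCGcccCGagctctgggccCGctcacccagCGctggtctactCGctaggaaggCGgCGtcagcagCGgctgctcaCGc
The Sema3g window held 8 CpG at 58.7% GC and that of Sema5a 23 CpG at 71.3% GC. Both are examples only, and Robo2, slightly below Sema5a in that ratio, had a window at 53.3% GC.

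Nearly the whole guidance repertoire was measured in the UGS. Of the 59 genes, 53 had at least 1 FPKM in some library, 49 had it in all 4, and 33 reached at least 10 FPKM. The 6 genes below 1 FPKM throughout were Epha6, Epha8, Epha10, Plxnb3, Robo3 and Slit1. Plxnb2, a plexin receptor for class 4 semaphorins, had the highest level in 3 of the 4 libraries, with 48.8, 47.9, 28.6 and 42.0 FPKM. In E18.5 wild type the order was led instead by Sema5a with 55.7 FPKM and Sema3c with 45.1 FPKM. Efnb2, Sema3c, Sema5a and Nrp1 were among the 8 highest in every library, together with Plxnb2. With no replicates, the spread that would separate neighbours in this order was not measured. The summed level of the 59 genes was 789, 782, 621 and 681 FPKM.

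**Figure D1:**
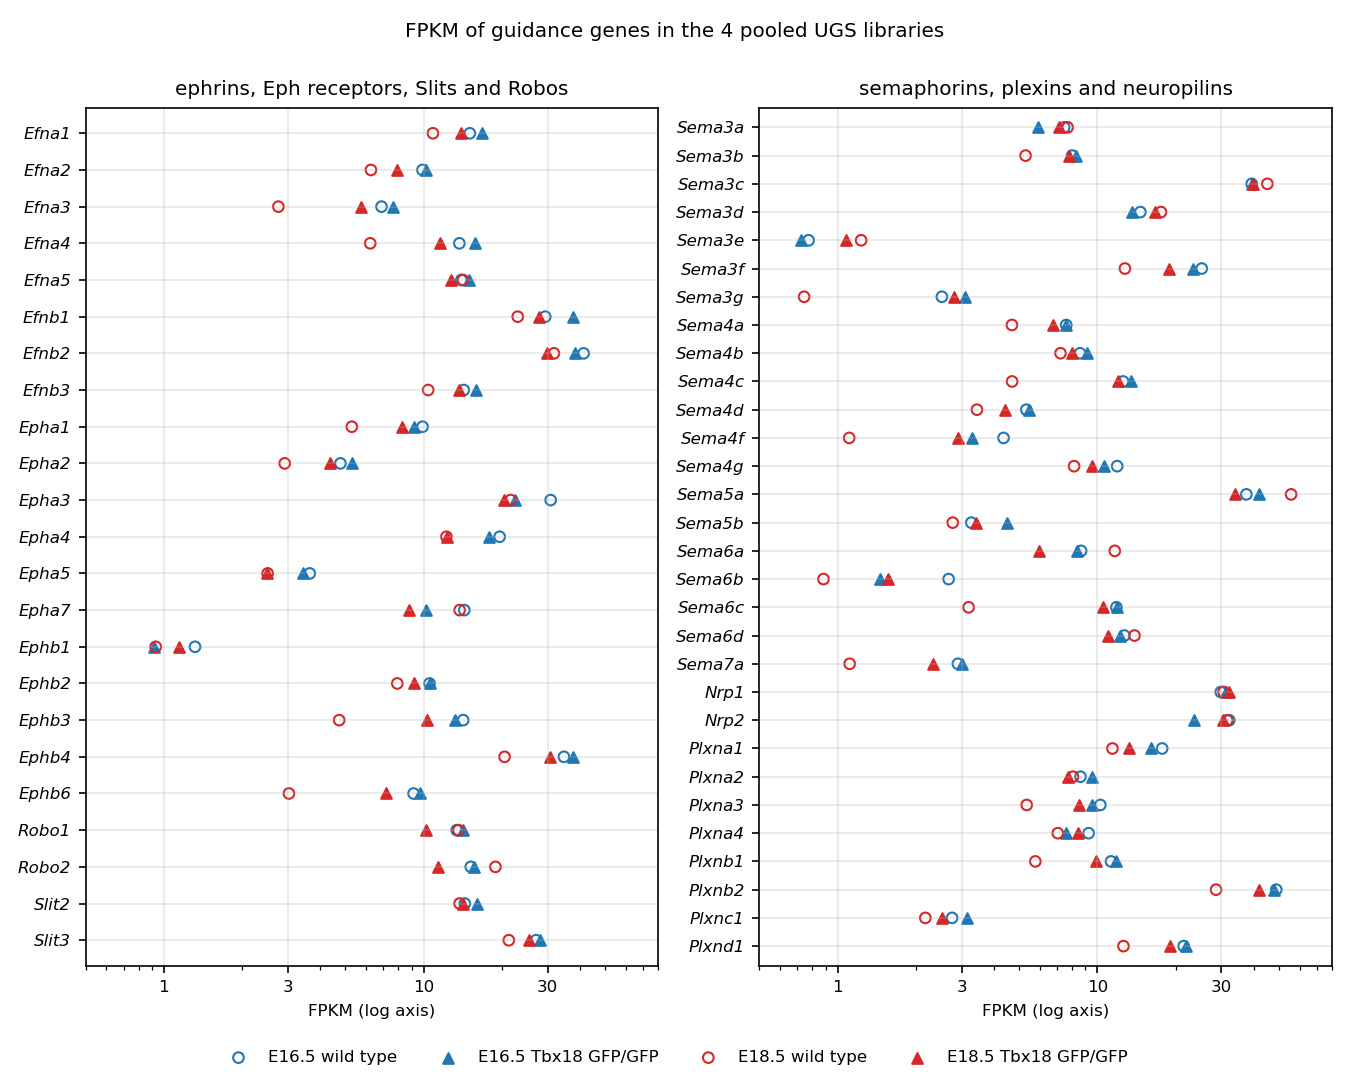
FPKM (log axis) of the 53 guidance genes with at least 1 FPKM in some library, 1 row per gene, with 1 symbol per pooled library (circles wild type, triangles Tbx18 GFP/GFP, blue E16.5, red E18.5). The E18.5 wild type circle is the lowest of the 4 symbols in 35 of the 53 genes.

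The plot of FPKM by library shows the main split among the libraries. E18.5 wild type was the lowest of the 4 libraries for 35 of the 53 genes (66.0%), and 63.7% of all genes at that level were lowest there, so the share among guidance genes was near the background. It was the highest library for 8 guidance genes (15.1%), against 21.9% of all genes. On the log2(FPKM + 1) scale, Pearson's r over the 53 genes lay between 0.984 and 0.985 for each pair of the other 3 libraries and between 0.908 and 0.926 for the pairs with E18.5 wild type, a description over genes that share these libraries. Ratios with E18.5 wild type on one side are therefore given with the values of the other 3 libraries.

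At E16.5 the guidance genes differed little between genotypes. Ratios are Tbx18 GFP/GFP over wild type for genes that reached 1 FPKM in a library of the pair, and a fold of at least 1.5 was counted at this stage. Of 52 genes at that level, 29 were higher and 23 lower in the mutant, 41 (78.8%) lay within 1.2-fold against 84.3% of all genes, and the median log2 ratio was 0.04 against 0.01 over all genes. No guidance gene was at least 1.5-fold higher, where 1.44% of all genes were, and 1 was at least 1.5-fold lower, where 2.72% of all genes were. That gene was Sema6b, a transmembrane class 6 semaphorin on chromosome 17 from 56262508 to 56279766, with 2.68, 1.46, 0.883 and 1.56 FPKM. It was highest in E16.5 wild type, with the mutant libraries close to each other and E18.5 wild type lowest. The E16.5 log2 ratio of Sema6b was -0.88, with a 95% interval for counting error only of -1.08 to -0.67 from an estimated 603 and 286 reads.

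Several Eph receptors had lower values in the E16.5 mutant. Among the 6 EphA receptors with at least 1 FPKM, 5 were lower in the mutant and Epha2 was higher, and the same count was found under each of the 4 other scalings tried. In the same pair the summed neuronal markers had 442 FPKM (wild type) and 360 FPKM (mutant), with 5 of 6 lower, the smooth muscle markers 1044 and 540 FPKM, with 5 of 5 at least 1.5-fold lower, and the skeletal muscle markers 435 and 169 FPKM, with 6 of 6 at least 1.5-fold lower. Their part in the EphA values was not tested. Epha3 had 30.8, 22.4, 21.6 and 20.4 FPKM, highest in E16.5 wild type and, as deposited, close to one level in the other 3 libraries. That level depended on scaling. The E18.5 log2 ratio of Epha3 was -0.08 as deposited, -0.50 with equal sums, -0.37 after median centring and -0.03 with the trend subtracted. Epha7 had 14.3, 10.2, 13.8 and 8.76 FPKM, so that both wild type libraries lay above both mutant libraries. Both are receptors for A ephrins, and their log2 ratios at E16.5 were -0.46 for Epha3 and -0.49 for Epha7. The position of Epha7 is chromosome 4 from 28740295 to 28894649, and that of Epha3 chromosome 16 from 63545044 to 63863983. Among the EphB receptors Ephb1 had 1.32, 0.912, 0.930 and 1.14 FPKM, low values with a log2 ratio of -0.53 at E16.5. Neuropilin 2, a coreceptor for Sema3f and for VEGF-C, had 32.2, 23.7, 31.6 and 30.4 FPKM, and E16.5 Tbx18 GFP/GFP stood below the other 3 libraries, with a log2 ratio of -0.44.

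Among the ligands, 7 of the 8 ephrins were higher in the E16.5 mutant, where the median log2 ratio over all genes was 0.01. All 5 A ephrins were higher in the mutant, by log2 ratios of 0.05 for Efna2 to 0.20 for Efna4, though only 3 of the 5 were once FPKM sums were made equal. Efnb1, the X-linked B ephrin, had 29.4, 37.5, 23.0 and 27.8 FPKM and a log2 ratio of 0.35, so E16.5 Tbx18 GFP/GFP was the highest of the 4 libraries. The highest ratio of all was that of Sema5b, a transmembrane semaphorin with thrombospondin repeats, at 0.46 on the log2 scale, from 3.27, 4.50, 2.77 and 3.43 FPKM. Efnb2, the B ephrin of arteries, went the other way with 41.3, 38.1, 31.7 and 29.9 FPKM, lower in the mutant at both stages by less than 1.2-fold.

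At E18.5, 8 of 53 guidance genes (15.1%) had 2-fold or more of the wild type level in the mutant, and 15.1% of all genes did. None was at least 2-fold lower, against 2.89% of all genes. At 1.5-fold, 15 genes (28.3%) were higher against 33.2% of all genes and 4 (7.55%) were lower against 7.60%. The median log2 ratio was 0.27, against 0.30 over all genes, so more of all genes were higher than lower in the mutant. The counts thus lay at or below the background, and what follows describes which family members they were. Centred on the all-gene median, 4 of the 8 stayed past 2-fold higher, Sema3g at 1.62, Sema6c at 1.43, Sema4f at 1.10 and Sema4c at 1.06 on the log2 scale, and 3 genes were past 2-fold lower, Sema6a at -1.26, Robo2 at -1.02 and Sema5a at -1.01. In this pair of libraries the smooth muscle markers summed to 1231 FPKM (wild type) and 3434 FPKM (mutant). The erythroid markers summed to 3173 and 12793 FPKM. The skeletal muscle markers summed to 239 and 585 FPKM, but only 2 of 6 were higher in the mutant. Their median log2 ratio was -0.54. The wild type library was also the shallower, and the part of these in the ratios was not tested. The 8 genes were Sema3g, Sema6c, Sema4f, Sema4c, Sema7a, Ephb6, Ephb3 and Efna3, and E18.5 wild type was the lowest library for each.

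Sema3g, a secreted semaphorin known from arterial endothelium, had the largest ratio among them. It had 2.52, 3.08, 0.744 and 2.80 FPKM, so that E18.5 wild type alone stood below a level shared by the other 3. The log2 ratio was 1.91, a fold of 3.76, with a counting interval of 1.60 to 2.22 from an estimated 93.5 and 634 reads. Against E16.5 wild type the same mutant library gave a log2 ratio of 0.15. Sema3g lies on chromosome 14 from 32031059 to 32042697. The summed level of the 6 endothelial markers was lowest in the same library, at 88.5 FPKM against 99.4 to 111 FPKM in the others, with 4 of the 6 lowest there but Cdh5 (26.3, 27.3, 28.4 and 25.0 FPKM) and Pecam1 (25.1, 29.1, 30.6 and 28.9 FPKM) highest there. Their part in the result was not tested.

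Membrane-bound semaphorins made up 4 of the 8. Sema6c, a transmembrane semaphorin on chromosome 3 from 94968296 to 94977238, was measured at 11.8, 11.9, 3.20 and 10.5 FPKM, and 3 libraries lay together far above E18.5 wild type. Its log2 ratio at E18.5 was 1.72, a fold of 3.29. Sema4c, a ligand of Plxnb2 on chromosome 1 from 36605487 to 36615226, had 12.6, 13.4, 4.70 and 12.0 FPKM in the same pattern, with a log2 ratio of 1.35. Sema4f, on chromosome 6 from 82861879 to 82889744, was measured at 4.35, 3.30, 1.11 and 2.91 FPKM with a log2 ratio of 1.39. Sema7a, which is held by a lipid anchor and binds integrins and Plxnc1, had 2.91, 3.01, 1.11 and 2.33 FPKM and a log2 ratio of 1.07, from an estimated 99.7 reads in E18.5 wild type. All 6 class 4 semaphorins were higher in the E18.5 mutant, by 0.14 for Sema4b to 1.39 for Sema4f on the log2 scale. The class median was 0.44, against 0.30 over all genes. Only 4 of 6 were higher after median centring, 3 of 6 with FPKM sums made equal and 2 of 6 with a trend on GC content and length subtracted. None of them was as low in either E16.5 library as in E18.5 wild type.

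Eph receptors of the B class and A ephrins completed the group. Ephb3, a kinase receptor on chromosome 16 from 21204868 to 21223377, had 14.2, 13.2, 4.73 and 10.3 FPKM, with a log2 ratio of 1.12. Ephb6, a receptor that lacks kinase activity, had 9.14, 9.67, 3.03 and 7.16 FPKM, with a log2 ratio of 1.24. In both genes the E18.5 mutant lay between E18.5 wild type and the 2 E16.5 libraries. All 5 EphB receptors were higher in the E18.5 mutant, where the median log2 ratio over all genes was 0.30. The count was 4 of 5 after median centring, 3 of 5 with equal sums and 2 of 5 with the trend subtracted. The weakest ratio was that of Ephb2, at 0.21 on the log2 scale from 10.5, 10.6, 7.92 and 9.16 FPKM. Ephb4, the venous receptor of Efnb2, had 34.7, 37.5, 20.5 and 30.7 FPKM and a log2 ratio of 0.59. Efna3 had 6.88, 7.65, 2.76 and 5.74 FPKM and a log2 ratio of 1.06, and its neighbour Efna4 had 13.7, 15.8, 6.23 and 11.6 FPKM and 0.90, just outside the 2-fold limit that Efna3 and Sema7a just passed. Efna1, Efna3 and Efna4 lie within 66.3 kilobases of chromosome 3, and Efna1 had 15.1, 16.7, 10.9 and 13.9 FPKM with a log2 ratio of 0.36, so all 3 had the same order of libraries.

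**Figure D2:**
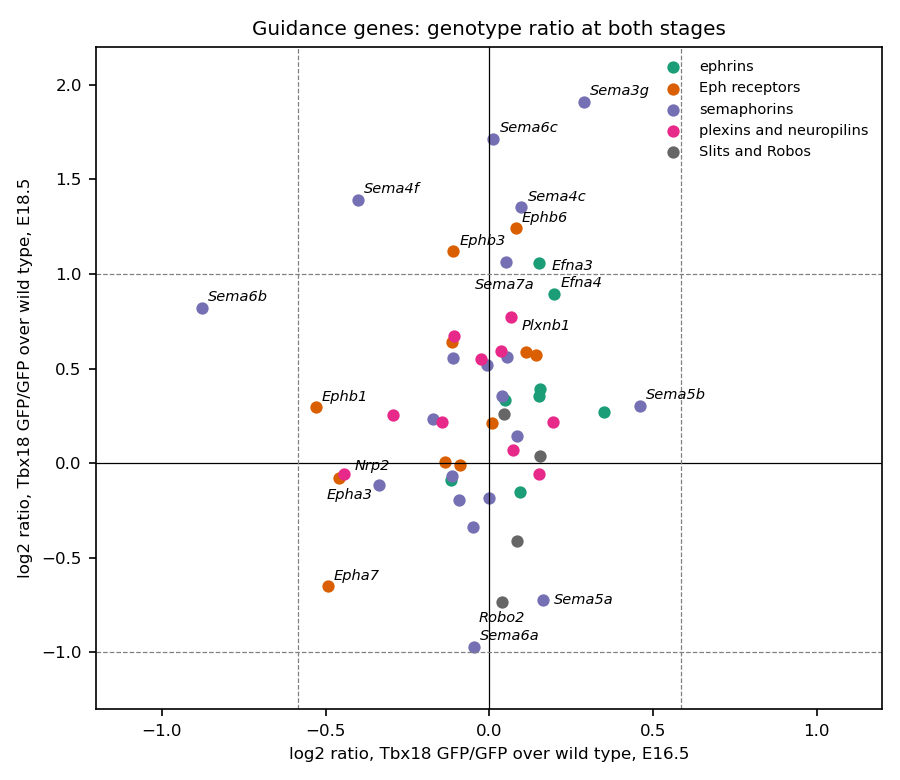
Log2 ratio of Tbx18 GFP/GFP over wild type at E16.5 (horizontal) and at E18.5 (vertical) for the 53 guidance genes with at least 1 FPKM in some library, coloured by family, with dashed lines at 1.5-fold for E16.5 and 2-fold for E18.5. The points spread from -0.97 to 1.91 on the vertical axis and, except for Sema6b at -0.88, within a narrower range on the horizontal one.

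The 4 genes at least 1.5-fold lower in the E18.5 mutant were Sema6a, Robo2, Sema5a and Epha7. Sema6a, a transmembrane semaphorin that acts through Plxna2 and Plxna4, had 8.66, 8.38, 11.7 and 5.96 FPKM. It was highest in E18.5 wild type and lowest in the E18.5 mutant, with a log2 ratio of -0.97. Sema5a, on chromosome 15 from 32174568 to 32626096, had 37.4, 42.0, 55.7 and 33.7 FPKM in the same order of extremes and a log2 ratio of -0.72. Robo2, a receptor of the Slits on chromosome 16 from 73892551 to 74411157, was measured at 15.2, 15.6, 18.9 and 11.4 FPKM with a log2 ratio of -0.73. Its neighbour Robo1 had 13.4, 14.2, 13.6 and 10.2 FPKM and a log2 ratio of -0.41, so that for both Robos the E18.5 mutant was the lowest library. Both ratios stayed below 0 under every scaling tried, while those at E16.5 were 0.08 for Robo1 and 0.04 for Robo2 and turned below 0 with equal sums. The ligands did not share this pattern, with Slit2 at 14.4, 16.04, 13.7 and 14.1 FPKM and Slit3 at 27.1, 27.9, 21.3 and 25.5 FPKM. For Epha7 the log2 ratio at E18.5 was -0.65, beside -0.49 at E16.5.

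For these 4 genes the E18.5 mutant library also lay below both E16.5 libraries. Against E16.5 wild type its log2 ratios were -0.54 for Sema6a, -0.42 for Robo2, -0.71 for Epha7 and -0.15 for Sema5a.

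Transcript base composition separated the members by ratio at E18.5. GC content and length were those of the longest annotated transcript, which all 59 genes had. Spearman's rho between GC content and the E18.5 log2 ratio was 0.76 across the 50 guidance genes that had at least 1 FPKM at E18.5 in each genotype, and 0.43 across 13012 genes in all. With transcript length rho was -0.51 across the guidance genes and -0.21 across all genes. At E16.5 the GC values were 0.19 across 51 guidance genes and 0.01 across 13478 genes. The points of each correlation share the same 2 libraries. In the third of guidance genes lowest in GC, 39.2% to 49.3%, 4 of 16 were higher in the E18.5 mutant, with a median log2 ratio of -0.13. In the highest, 57.0% to 61.5%, 17 of 17 were higher, with a median of 0.59, with 14 of 17 after median centring, 11 of 17 with equal sums and 8 of 17 with the trend subtracted. The 8 genes past 2-fold had 56.1% to 61.5% GC and the 16 that were lower 39.2% to 51.1%.

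**Figure D3:**
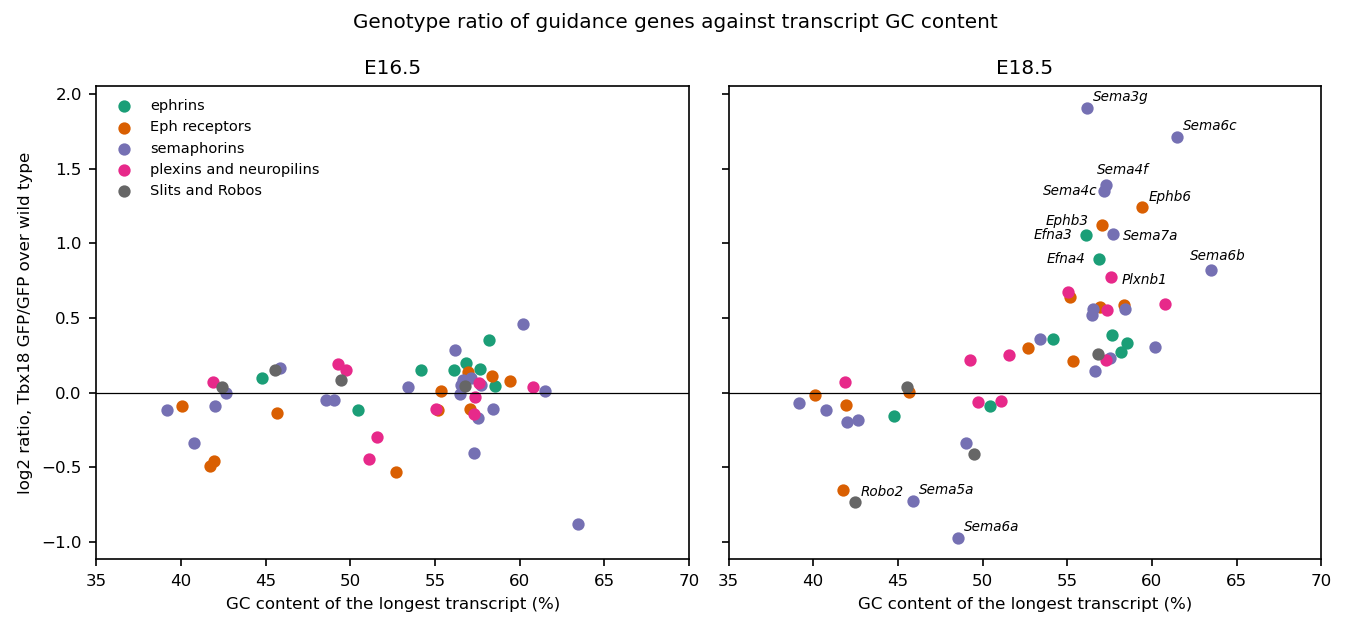
Log2 ratio of Tbx18 GFP/GFP over wild type against GC content of the longest transcript (%) for the guidance genes with at least 1 FPKM in some library, E16.5 on the left and E18.5 on the right, coloured by family. At E18.5 the genes below 50% GC lie mostly at or under 0 and all 8 genes past 2-fold lie above 56%, whereas at E16.5 no such slope is seen.

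With a smooth trend on length and GC content, fitted over all genes, subtracted from the log2 ratios, the E18.5 value of Sema3g was 1.38, that of Sema6c 0.995, that of Sema4f 0.78 and that of Sema4c 0.73. Only Sema3g then stayed past 2-fold. The same step took Ephb6 to 0.51, Ephb3 to 0.56, Efna3 to 0.37 and Sema7a to 0.37, and it took Ephb4 to -0.07. Sema6a then had -1.04, Sema5a -0.59, Robo2 -0.57 and Epha7 -0.54. At E16.5 the step left Sema6b at -0.88.

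The class 3 semaphorins showed the split by GC content. Sema3a, Sema3c, Sema3d and Sema3e lie within 4853 kilobases of chromosome 5 and had 39.2% to 42.7% GC, whereas Sema3b and Sema3f lie within 112 kilobases of chromosome 9 and, with Sema3g, had 56.2% to 58.4%. The 4 genes of chromosome 5 were lower in the E18.5 mutant, with log2 ratios of -0.20 to -0.07, and the other 3 were higher, with 0.56 to 1.91, a split that 3 of the other scalings kept and the subtracted trend did not. Sema3c, which acts in branching epithelia and in the outflow tract of the heart, had 39.3, 39.2, 45.1 and 39.8 FPKM, within 1.2-fold in all 4 libraries. Sema3d had 14.6, 13.5, 17.6 and 16.7 FPKM, higher at E18.5 than at E16.5 in both genotypes. Sema3f, the ligand of Nrp2, had 25.2, 23.4, 12.8 and 18.8 FPKM, lowest in E18.5 wild type. After the trend was subtracted, the E18.5 ratios were -0.16 for Sema3c, 0.09 for Sema3d and -0.16 for Sema3f.

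Receptors of the semaphorins kept to narrower ratios. Of the 8 plexins with at least 1 FPKM, 7 were higher in the E18.5 mutant, 4 of 8 after median centring, and none reached 2-fold. The plexin median log2 ratio was 0.40, against 0.30 over all genes. Plxnb1, the receptor of Sema4d, had 11.3, 11.8, 5.77 and 9.86 FPKM and the largest plexin ratio, 0.77 on the log2 scale. Plxnd1, an endothelial receptor for Sema3e, had 21.5, 22.0, 12.6 and 19.0 FPKM and a log2 ratio of 0.59, and Plxna3 had 10.3, 9.53, 5.35 and 8.53 FPKM and 0.67. Plxna1 had 17.8, 16.1, 11.4 and 13.3 FPKM. Nrp1, the coreceptor of Sema3a and of VEGF-A, had 29.8, 31.4, 30.6 and 32.1 FPKM. As deposited it had the smallest range of the 33 genes that reached 10 FPKM, 1.08-fold from the lowest to the highest library. The E18.5 log2 ratio of Nrp1 was 0.07 as deposited, -0.35 with equal sums, -0.22 after median centring and -0.01 with the trend subtracted.

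The remaining abundant members stayed within 2-fold between genotypes at both stages. Epha4, which binds ephrins of both classes, had 19.6, 17.9, 12.2 and 12.3 FPKM. Its E18.5 log2 ratio was 0.00 as deposited, -0.42 with equal sums, -0.28 after median centring and 0.01 with the trend subtracted. Efna5 had 14.0, 14.9, 14.2 and 12.7 FPKM, Efnb3 had 14.3, 15.9, 10.4 and 13.6 FPKM, and Efna2 had 9.89, 10.2, 6.27 and 7.89 FPKM. Sema6d, a ligand of Plxna1, had 12.7, 12.3, 13.9 and 11.0 FPKM, and Sema4g had 11.9, 10.6, 8.14 and 9.56 FPKM.

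Between E16.5 and E18.5 the 2 genotypes gave unlike pictures, and each stage comparison shares its E18.5 library with the genotype comparison above. In wild type, 10 of 53 guidance genes (18.9%) were at least 2-fold lower at E18.5, against 16.8% of all genes, and none was at least 2-fold higher, against 2.70%. The 10 were the 8 genes named above with Sema6b at a log2 ratio of -1.60 and Efna4 at -1.14. Sema4f had the lowest value, -1.97, and the median was -0.51 against -0.35 over all genes. Sema3e at 0.67, Sema5a at 0.57 and Sema6a at 0.43 had the highest ratios, in Sema3e from 0.774 and 1.23 FPKM.

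In Tbx18 GFP/GFP, whose 2 libraries had FPKM sums of 495419 and 504136, no guidance gene was 2-fold higher or lower at E18.5, against 1.35% and 0.571% of all genes, and none reached 1.5-fold, against 3.00% higher and 1.68% lower. The direction was nevertheless uneven: 44 of 53 (83.0%) were lower at E18.5 by some amount, and 64.7% of all genes were. The median log2 ratio was -0.22, against -0.06 over all genes, and -0.12 with the trend subtracted, against 0.0028. As deposited, 45.3% of the guidance genes lay within 1.2-fold against 79.9% of all genes. All 8 ephrins and all 6 EphA receptors with at least 1 FPKM were lower at E18.5, by as much as -0.54 on the log2 scale for Epha4 and -0.44 for Efna4. Both Robos were lower too, Robo1 at -0.47 and Robo2 at -0.46, as were all 6 class 4 semaphorins, with a class median of -0.17, and each of these families kept that direction for all its measured members under the 4 other scalings. The smooth muscle markers summed to 540 FPKM at E16.5 and 3434 FPKM at E18.5 in these libraries, and their part in the lower values was not tested. Counting error was small beside these values for abundant genes, with an interval of -0.60 to -0.48 for Epha4.

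**Figure D4:**
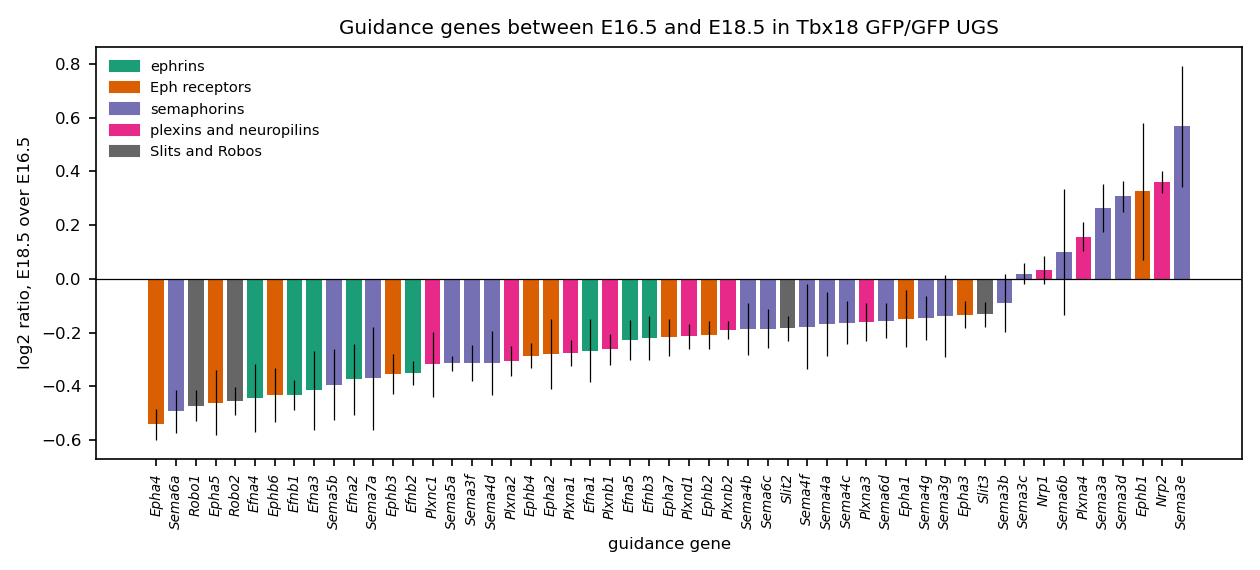
Log2 ratio of E18.5 over E16.5 in Tbx18 GFP/GFP for the 53 guidance genes with at least 1 FPKM in some library, ordered by value and coloured by family, with lines for the 95% interval of counting error only. Bars below 0 are lower at E18.5 (44 of 53 genes), and the values run from -0.54 for Epha4 to 0.57 for Sema3e.

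The 9 guidance genes higher at E18.5 in the mutant were 4 class 3 semaphorins, Sema6b, both neuropilins, Plxna4 and Ephb1. The class 3 semaphorins were those of chromosome 5, with log2 ratios of 0.02 for Sema3c, 0.26 for Sema3a, 0.31 for Sema3d and 0.57 for Sema3e, of which Sema3c turned below 0 with equal sums. In wild type these 4 were higher at E18.5 by 0.04 to 0.67. Of the neuropilins, Nrp2 had 0.36 and Nrp1 0.03, above 0 under every scaling tried. The plot of stage ratios in the mutant shows these at its right end.

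Set against E16.5 wild type in place of E16.5 Tbx18 GFP/GFP, the E18.5 mutant library again had no guidance gene past 2-fold, against 1.23% of all genes higher and 1.28% lower. It was lower by some amount for 47 of 53 genes (88.7%), where 60.2% of all genes were, with a median of -0.19 against -0.04. With the trend subtracted 36 of 53 were lower and the median was -0.072, and with equal sums 50 of 53 were lower and the median was -0.32. None was at least 1.5-fold higher, against 3.06% of all genes, and 4 (7.55%) were at least 1.5-fold lower, against 3.41%. These were Sema6b at -0.78, Epha7 at -0.71, Epha4 at -0.68 and Epha3 at -0.59 on the log2 scale. This comparison crosses genotype and stage, which cannot be told apart in it.

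Genes that work with these families were described by count. Of the netrins and their receptors, another guidance family, 12 were measured at 1 FPKM or more at E18.5, and 3 were at least 2-fold higher in the mutant and none lower, where 15.1% of all genes were higher and 2.89% lower. The 3 were the ligands Ntn1, Ntn3 and Ntng2, all below 10 FPKM and all lowest in E18.5 wild type. Ntn1 had 9.27, 7.93, 3.05 and 7.10 FPKM and a log2 ratio of 1.22. Ntn3 had 8.29, 9.96, 3.36 and 7.23 FPKM and a log2 ratio of 1.11. Ntng2 had 2.56, 2.09, 0.736 and 1.88 FPKM and a log2 ratio of 1.35. The receptor Unc5b, also lowest in E18.5 wild type, had 14.5, 16.4, 7.13 and 14.3 FPKM. Its log2 ratio of 0.9997 fell just short of 2-fold. The cytoplasmic effectors of Eph receptors and ephrins had none of 13 past 2-fold in either direction, and the effectors of semaphorin receptors none of 14. By any amount, 6 of the 13 and 13 of the 14 were higher in the mutant. Their median log2 ratios were -0.07 and 0.43, against 0.30 over all genes. Of 12 Slit and Robo partners, 2 were higher and none lower. Gpc1, a glypican that binds Slits, had 46.4, 46.1, 14.1 and 37.0 FPKM, and Vasp, an actin regulator of the Ena family that acts with Robo, had 39.3, 36.8, 10.5 and 39.3 FPKM, both low in E18.5 wild type alone. Between stages in the mutant no gene of the 4 lists passed 2-fold, and in wild type 4, 2, 2 and 2 were at least 2-fold lower at E18.5, in the order of the lists above, where 16.8% of all genes were. For the E16.5 pair, 12, 14, 14 and 12 genes of the 4 lists were measured at 1 FPKM or more, in the same order. None was at least 1.5-fold higher in the mutant, where 1.44% of all genes were. Only 1 was at least 1.5-fold lower, where 2.72% of all genes were. That gene was the netrin receptor Unc5a, with low values of 1.85, 1.19, 1.37 and 2.01 FPKM. Its log2 ratio of -0.64 in this pair turned to 0.55 in the E18.5 pair.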

How the data were processed

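RNA was isolated from whole UGS, and stranded, single-end libraries were sequenced. Per the labels and the paper's methods, the authors trimmed reads with Trimmomatic 0.30, aligned them with TopHat2 2.1.0 and deposited FPKM values from Cufflinks 2.2.1, 1 column per library. The genome build is not given in the sources used here. The positions, which differ from GRCm38, are those of the table, with starts counted from 1.

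Ratios were computed without a pseudocount wherever a library of the pair had 1 FPKM or more, and medians with a pseudocount of 0.1. Depth was estimated from olfactory receptor genes whose FPKM was that of a single read. Counting intervals (95%) rest on estimated reads and cover counting error only. Transcript length and GC content came from an annotation, matched by symbol for 23079 rows. A lowess trend (span 0.3) was fitted over all genes. The ratios, the trend step and the counting of calls were tested on simulated data, and the other steps were not.

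Members and lists were chosen with earlier results of these data known. Genes named were members with at least 10 FPKM in any library, past the fold threshold, or among the 4 highest of a family, and 39 met this rule. Others were named after their values were seen. In the supporting lists, values were given for genes past 2-fold with at least 10 FPKM. Ntn1, Ntn3, Ntng2 and Unc5a, below that level, and Unc5b, just short of 2-fold, were named after their values were seen. Alternatives were other scalings (equal sums, median centring, the 75th percentile, the trend), filters, pseudocounts and the exchange of a library. The software was statsmodels 0.14.6, scipy 1.17.1, pandas 2.3.3, numpy 2.4.6 and, for figures, matplotlib 3.10.9 under Python 3.11.15.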

Additional observations from a re-analysis of the deposited data

Results flagged for a closer look

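Among guidance genes with at least 1 FPKM in a library of each pair, only Sema6b was past 1.5-fold in opposite directions at the 2 stages, with a log2 ratio of mutant to wild type of -0.88 at E16.5 and 0.82 at E18.5. The difference between the stages was not tested, since each ratio rests on 1 library a genotype. Once a trend on GC content and length was taken out, the E18.5 ratio was -0.08 and that at E16.5 was -0.88. An estimated 90.3 reads lay behind its E18.5 wild type value, the lowest of the 4.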

How the results depend on the processing

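The number of guidance genes past 1.5-fold lower in the E16.5 mutant was 1 as deposited, 3 with FPKM sums made equal, 2 with no FPKM filter, and 0 both with a filter of 5 FPKM and with a pseudocount of 1, and the median of 0.04 turned to -0.069 with equal sums. At E18.5 the 8 genes past 2-fold higher became 2 with equal sums, 4 with median centring, 4 with upper quartile scaling, 1 with the trend subtracted, 5 with the filter of 5 FPKM, 4 with a pseudocount of 1 and 0 with E16.5 wild type in place of E18.5 wild type. The genes past 2-fold lower rose in number from 0 to 4 with equal sums, 3 with median centring, 1 with upper quartile scaling and 1 with the trend, led by Sema6a. The E18.5 median of 0.27 became -0.15, -0.018, 0.012 and -0.069 under those 4 scalings in the same order, and -0.19 with the exchanged library. In wild type between stages the 10 lower genes became 2 with the trend, 6 with the filter of 5 FPKM and 0 with the E18.5 mutant in place of E18.5 wild type, 1 gene was past 2-fold higher with median centring, and the median of -0.51 became -0.22 with equal sums, -0.18 with median centring, -0.22 with upper quartile scaling, 0.00088 with the trend and -0.19 with the exchanged library. In the mutant between stages the count lower was 1 with no filter and 0 otherwise, and 43 to 45 of 53 genes were lower under the 4 scalings. The cause of these shifts was not tested. No paired analysis was possible because each group held 1 library. Depth limits Sema3g, Sema6b and Sema7a most.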
